A study of Homo sapiens with 8 samples.

Results

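CREBBP, EP300, EP400 and NCOR1 encode large regulators of histone acetylation, and their peaks were taken by gene name from 4 lists of RNA sites bound by the RNA-binding protein QKI7. All 4 genes were listed, among 6520 genes in all. They held 32 of 42083 peaks, which merged by position into 11 of 14518 sites. The samples came from HepG2, a human liver cancer cell line that here carried Cas9 and a lentiviral transgene for QKI7 with a 3 x Flag tag, and GFP-positive cells were used in every group. One set of cells received a guide against METTL1 (sgMETTL1, labelled METTL1 KO) and the control cells a control guide (sgNS). For each guide, input RNA and RNA pulled down from UV cross-linked lysates with an antibody to Flag (IP) were sequenced in 2 replicates, which made 8 samples in 4 groups, and 1 peak list was deposited for each pair of IP and input. The tagged protein was expressed from a transgene in all groups, so the peaks describe that protein and not endogenous QKI alone.

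CREBBP (CBP) and EP300 (p300) are closely related acetyltransferases that transcription factors recruit to enhancers and promoters, where they acetylate histones. EP400 is not itself an acetyltransferase. It is the ATPase of the TIP60 (NuA4) acetyltransferase complex and exchanges histone variants. NCOR1 is a corepressor scaffold that carries the deacetylase HDAC3 to nuclear receptors, with the opposite effect on acetylation. QKI proteins belong to the STAR family, bind short recognition elements in RNA and act on splicing, stability and translation of their targets. METTL1 with WDR4 methylates guanosine in RNA, and the series asked whether its loss alters the binding of QKI7 to transcripts.

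The sgMETTL1 lists held 10095 and 9388 peaks and the sgNS lists 11562 and 11038. QKI had peaks in all 4 lists and METTL1 and WDR4 in none, and the knockout could therefore not be checked in these files. Of 12 hepatocyte markers, 4 (APOB, SERPINA1, FGB and HNF4A) were in all 4 lists and 6 in none, AFP among them. Of 10 fibroblast, blood and endothelial markers, LYZ alone was listed. A gene with no peak was not listed as bound, which does not show that it was not expressed. Read numbers behind the peaks are unknown, and so are their intervals.

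Of the 11 sites on the 4 transcripts, 5 (45.5%) were in all 4 lists, against 41.3% of all sites. These were 2 sites of CREBBP, 2 of NCOR1 and the only site of EP400. Both sgMETTL1 lists held 5 of the 11 (45.5%, against 44.6% of all sites) and both sgNS lists 7 of the 11 (63.6%, against 58.4%). The other 2 sites of both sgNS lists, CREBBP site 4 and EP300 site 1, were also in replicate 1 of sgMETTL1, a pattern that 5.71% of all sites showed. None of the 11 was found with sgMETTL1 in both replicates while absent from the sgNS lists (1.21% of all sites), and none the other way round (7.42%). The sites of 1 list alone numbered 4 (36.4%, against 32.4% of all sites). All 4 were in an sgNS list, where the share of all sites was 20.1%, and none in an sgMETTL1 list, where it was 12.3%. By gene, CREBBP, EP400 and NCOR1 were in all 4 lists, as were 63.7% of all genes, and EP300 was missing from replicate 2 of sgMETTL1.

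Most of the peaks lay close to the 3' end of their gene. Their centres fell in the last 10% of the gene's RefSeq span for 5 of 7 and 5 of 6 peaks with sgMETTL1, and for 7 of 9 and 6 of 10 with sgNS. Over all peaks with a matched gene this share was 73.9% in both sgMETTL1 lists, and 75.0 and 75.1% in the sgNS lists. The 4 genes have long spans, from 87.5 kb for EP300 to 186.4 kb for NCOR1, so the last 10% covers many kilobases. Sites are numbered here from the 3' end of each gene. Coordinates are GRCh38 and count from 1, and transcript parts (coding or untranslated) were not assigned here.

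**Figure D1:**
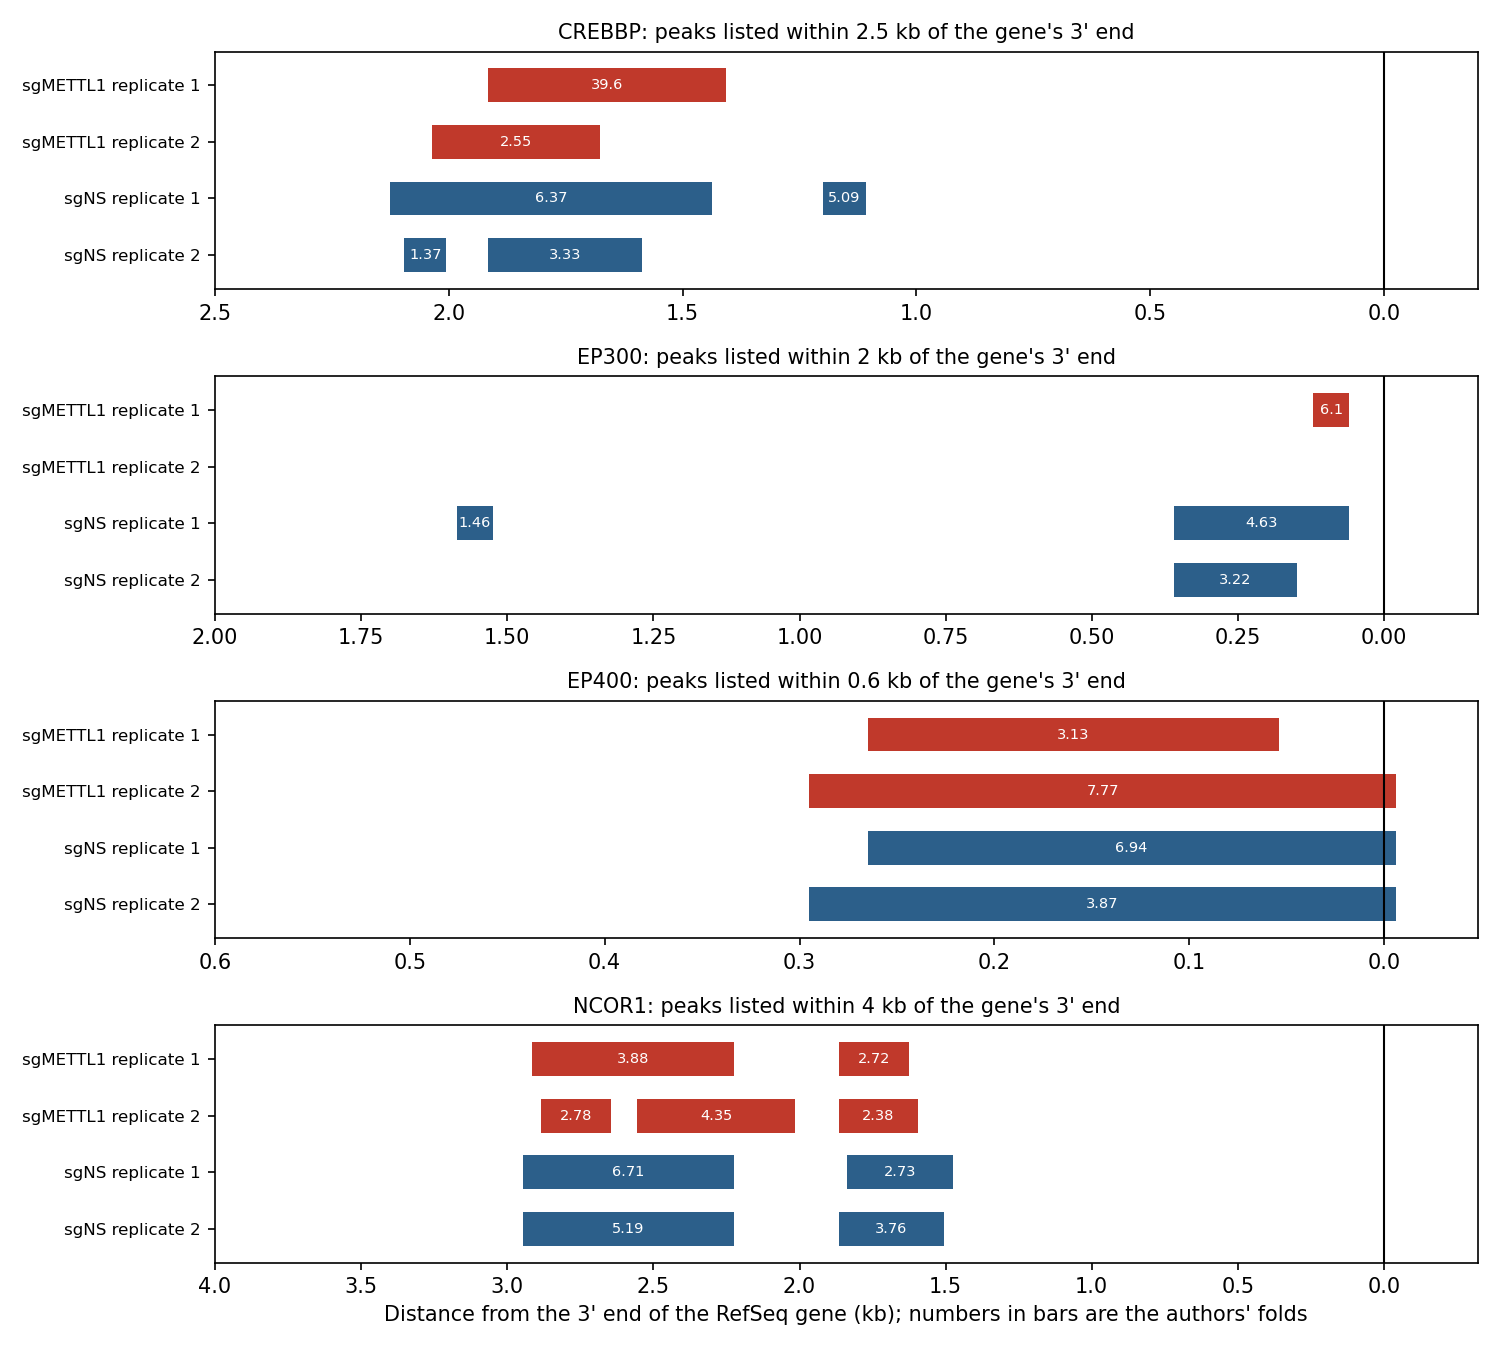
Peaks of the 4 genes near the 3' end of each gene, by list (rows, the sgMETTL1 lists above the sgNS lists), against the distance from the gene's 3' end in kb; the number in each bar is the authors' fold of IP over input. EP400 has 1 peak in each list at the end of the gene, NCOR1 has peaks at 2 neighbouring sites in every list, and EP300 has no bar in replicate 2 of sgMETTL1.

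CREBBP had 4 sites, 2 of them near the 3' end and 2 within the gene. Site 2 (chromosome 16, minus strand, 3726461 to 3727179) was its strongest in 3 of the 4 lists. The authors' fold of IP over input there was 39.6 in replicate 1 and 2.55 in replicate 2 of sgMETTL1, against 6.37 and 3.33 in the sgNS lists. One sgMETTL1 list was thus the highest of the 4 and the other the lowest, so the guides overlapped. The fold of 39.6 stood at the 3.85th percentile of all peaks of its list, where 0 is the strongest, and the other sgMETTL1 fold at the 77.5th, with the sgNS folds at the 37.2nd and 61.6th. The replicates of sgMETTL1 differed 15.5-fold at this site, and 0.0167% of the 6003 sites of all 4 lists had a larger ratio between them. The median ratio over those sites was 1.27. Between the sgNS replicates the ratio was 1.91 at this site, against a median of 1.23.

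The peak with the highest fold did not carry the strongest evidence. The authors' -log10 p at CREBBP site 2 was 21.1 and 7.04 with sgMETTL1, against 50.8 and 21.7 with sgNS. The lists drew the site with different edges, over 509 and 360 bases with sgMETTL1 and 689 and 330 bases with sgNS, and replicate 2 of sgNS added a second peak of 91 bases with a fold of 1.37. All 4 lists shared 240 bases, from 3726730 to 3726969. A fold here is therefore that of a window that changed from list to list, and the part of the edges in the difference was not tested. Site 1 (3726162 to 3726252) was listed in replicate 1 of sgNS only, with a fold of 5.09 and a p of 0.0016.

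Within the CREBBP gene, site 3 (3770697 to 3773850) lay 45.6 kb or more from the 3' end. Its folds were 2.05 and 3.07 with sgMETTL1 and 2.18 and 2.69 with sgNS. The sgNS values fell between the sgMETTL1 values. In replicate 1 of sgMETTL1 and replicate 2 of sgNS the peak joined 2 blocks and in the other lists it was 1 block, while 180 bases were common to all. Site 4 (3778816 to 3782701) was weaker. It was listed at 1.45 in replicate 1 of sgMETTL1 and not in replicate 2, against 1.77 and 1.56 in the sgNS lists, where it joined 4 and 3 blocks.

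EP300, the paralogue of CREBBP, was the least completely listed of the 4 genes. Its site 1 (chromosome 22, plus strand, 41179718 to 41180017) ended 60 bases before the 3' end of the gene. The fold was 6.1 in replicate 1 of sgMETTL1, with no peak in replicate 2, against 4.63 and 3.22 in the sgNS lists. The sgMETTL1 peak was the highest in fold and the weakest in evidence, with a -log10 p of 2.72 against 10.4 and 10.4. It covered 61 bases, and the sgNS peaks covered 300 and 211. The peak of replicate 1 of sgMETTL1 shared bases with replicate 1 of sgNS and none with replicate 2, so that no base was common to the 3 lists. Site 2 (41178492 to 41178552) was in replicate 1 of sgNS only, at a fold of 1.46.

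EP400 had 1 site and it was in every list (chromosome 12, plus strand, 132080166 to 132080466). The peak covered 211 and 301 bases with sgMETTL1 and 271 and 301 with sgNS, and 3 of the 4 peaks ran 6 bases past the RefSeq end of the gene. The fold was 3.13 and 7.77 with sgMETTL1, against 6.94 and 3.87 with sgNS. The sgMETTL1 values thus stood on both sides of the sgNS values. The -log10 p was 5.86 and 17.9 with sgMETTL1 and 15.3 and 10.9 with sgNS, with the same overlap.

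NCOR1 had its main peaks at 2 neighbouring sites on chromosome 17, minus strand. At site 2 (16031172 to 16032101) the fold was 3.88 and 4.35 with sgMETTL1, against 6.71 and 5.19 with sgNS. Both sgMETTL1 values were under both sgNS values, as at 38.7% of all sites of the 4 lists. In replicate 2 of sgMETTL1 the site was split into 2 peaks, of 540 bases at 4.35 and of 241 bases at 2.78, while the sgNS lists held 1 peak of 720 bases with the same edges. The -log10 p with sgMETTL1 was 20.2 in replicate 1. In replicate 2 it was 13.2 for the peak of 540 bases and 18.3 for that of 241 bases. With sgNS it was 62.4 and 45.1. Lower values in both sgMETTL1 lists than in both sgNS lists were seen at 76.2% of all sites of the 4 lists.

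NCOR1 site 1 (16030633 to 16031022) lay 1.48 kb or more from the 3' end. Its fold was 2.72 and 2.38 with sgMETTL1 and 2.73 and 3.76 with sgNS. The guides did not overlap, by the smallest margin that the listed digits allow. The share of 38.7% of all sites applies here too. Sites 3 (16068051 to 16068111, fold 1.27) and 4 (16121225 to 16126187, fold 1.75) were in replicate 2 of sgNS only, the second of them midway along the gene. Sites 1 and 2 also lie in the RefSeq span of TTC19, a gene of the opposite strand that had no peak under its own name. The libraries were stranded, but whether the peak caller used the strand is not given in the sources used here, and without that, reads from the pair cannot be told apart.

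**Figure D2:**
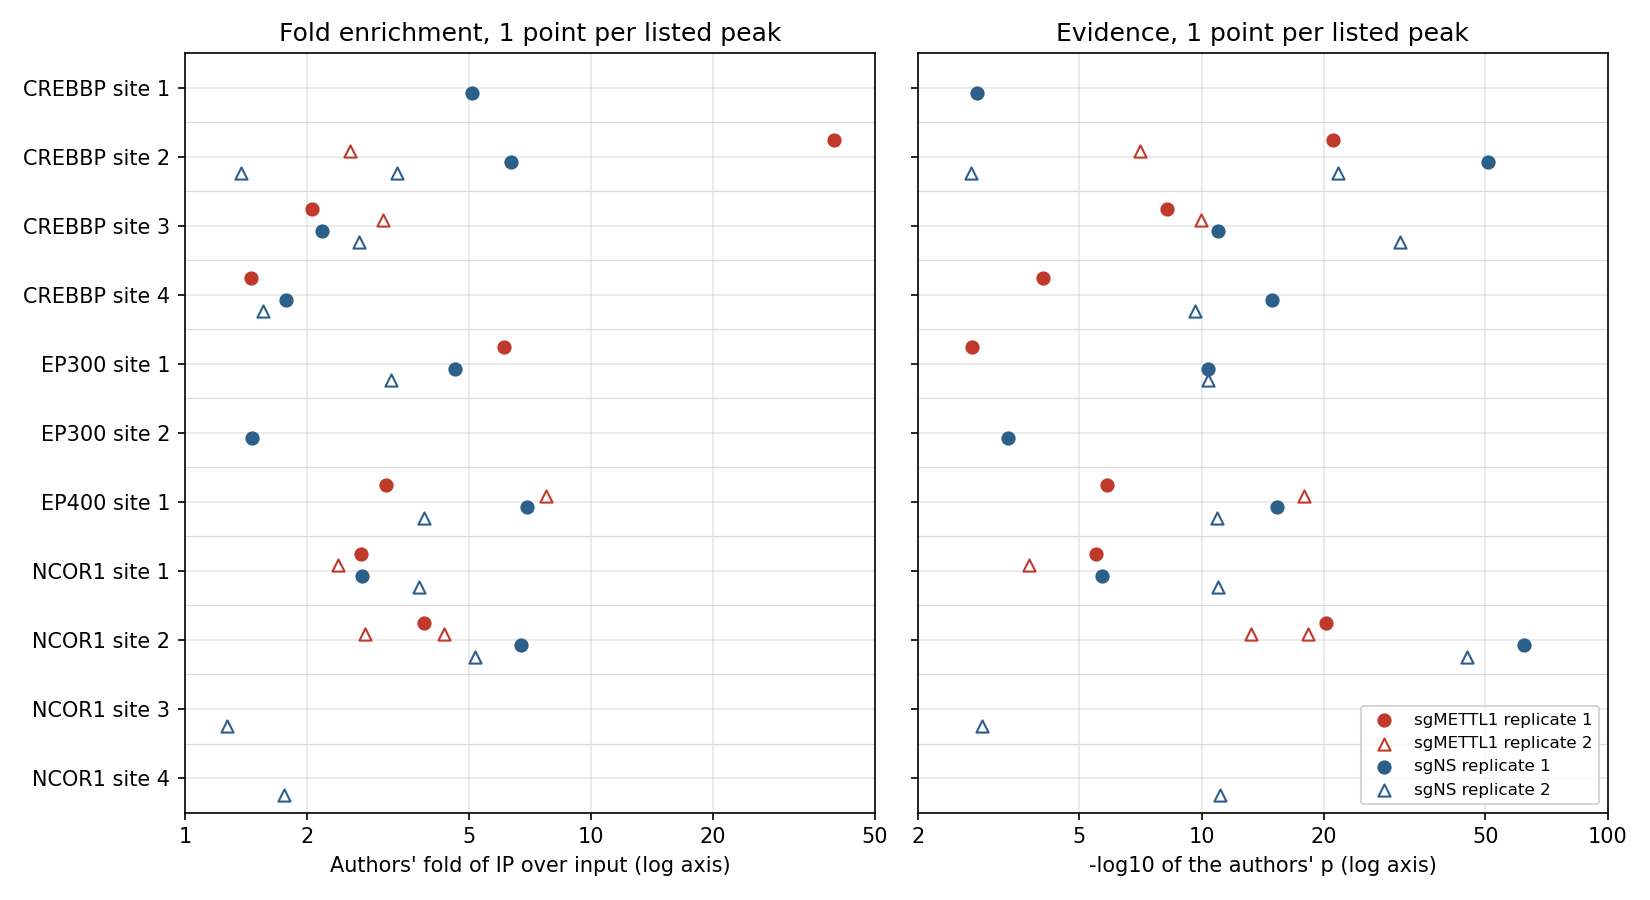
The authors' fold of IP over input (left, log axis) and the -log10 of the authors' p (right, log axis) at each of the 11 sites, 1 point per listed peak (red, sgMETTL1; blue, sgNS; circles, replicate 1; triangles, replicate 2). The fold of 39.6 at CREBBP site 2 in replicate 1 of sgMETTL1 stands alone. At NCOR1 site 2 both sgNS folds, 6.71 and 5.19, lie above the sgMETTL1 folds, as at 38.7% of all sites of the 4 lists.

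By its strongest peak, only CREBBP was above the 10th percentile of genes, and in 1 list. Among the genes of each list, where 0 is the strongest, CREBBP ranked at the 7.36th and 80.1st percentile with sgMETTL1 and the 56.1st and 78.6th with sgNS. NCOR1 ranked at 72.5 and 65.9 with sgMETTL1 and 54.1 and 62.4 with sgNS. EP400 ranked at 81.0 and 43.9 with sgMETTL1 and 52.7 and 73.4 with sgNS. EP300 ranked at 54.1 in its 1 sgMETTL1 list and at 68.6 and 79.7 in the sgNS lists. In the sgNS lists the order by mean percentile was NCOR1, EP400, CREBBP and EP300, and each neighbour's range overlapped the next.

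The guides were compared by limma on normal scores of the rank of each fold within its list, over the 6003 sites of all 4 lists, since no scaling between lists is stated. Limma called 0.0% of the sites at a false discovery rate of 5% (0 of 6003, smallest adjusted p = 0.333). At limma's two-sided unadjusted p under 0.05, 628 sites passed, 325 higher (5.41%) and 303 lower (5.05%) with sgMETTL1. Without any difference, about 5% would be expected over both directions together. None of the 5 member sites reached even the unadjusted threshold. For CREBBP site 2 the score difference, sgMETTL1 minus sgNS, was 0.71 (95% interval -1.43 to 2.85, limma's adjusted p = 0.787). It was -0.54 without replicate 1 of sgMETTL1 and 1.89 without replicate 2, so the direction rests on 1 list. The difference was 0.24 (-0.60 to 1.08) for CREBBP site 3 and 0.09 (-1.01 to 1.19) for EP400 site 1. It was -0.14 (-0.76 to 0.47) for NCOR1 site 1 and -0.21 (-0.72 to 0.29, limma's adjusted p = 0.724) for NCOR1 site 2. These intervals are wide, and a missed threshold does not show that binding was alike. The median difference was 0.091 over the 5 sites and -0.015 over all 6003, and 3 of the 5 were higher, against 2885 of all 6003.

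The direction at CREBBP site 3 turned to -0.18 without replicate 2 of sgMETTL1. At EP400 site 1 it turned without replicate 2 of sgMETTL1 (-0.47) and without replicate 2 of sgNS (-0.21). On log2 folds the sign there also turned (-0.07), but the value stayed above the median of -0.22 over all sites. At NCOR1 site 1 it turned to 0.09 without replicate 2 of sgNS. NCOR1 site 2 was lower with sgMETTL1 in every alternative fit that held it, but with 50% reciprocal overlap it was no longer 1 site of all 4 lists. Its difference shrank to -0.12 without replicate 1 of sgMETTL1 and to -0.12 without replicate 1 of sgNS. On log2 folds its difference was -0.52 (limma's adjusted p = 0.437), around a median of -0.22 over all sites. On that scale 159 sites were higher and 633 lower at an unadjusted p under 0.05, and limma again called 0.

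**Figure D3:**
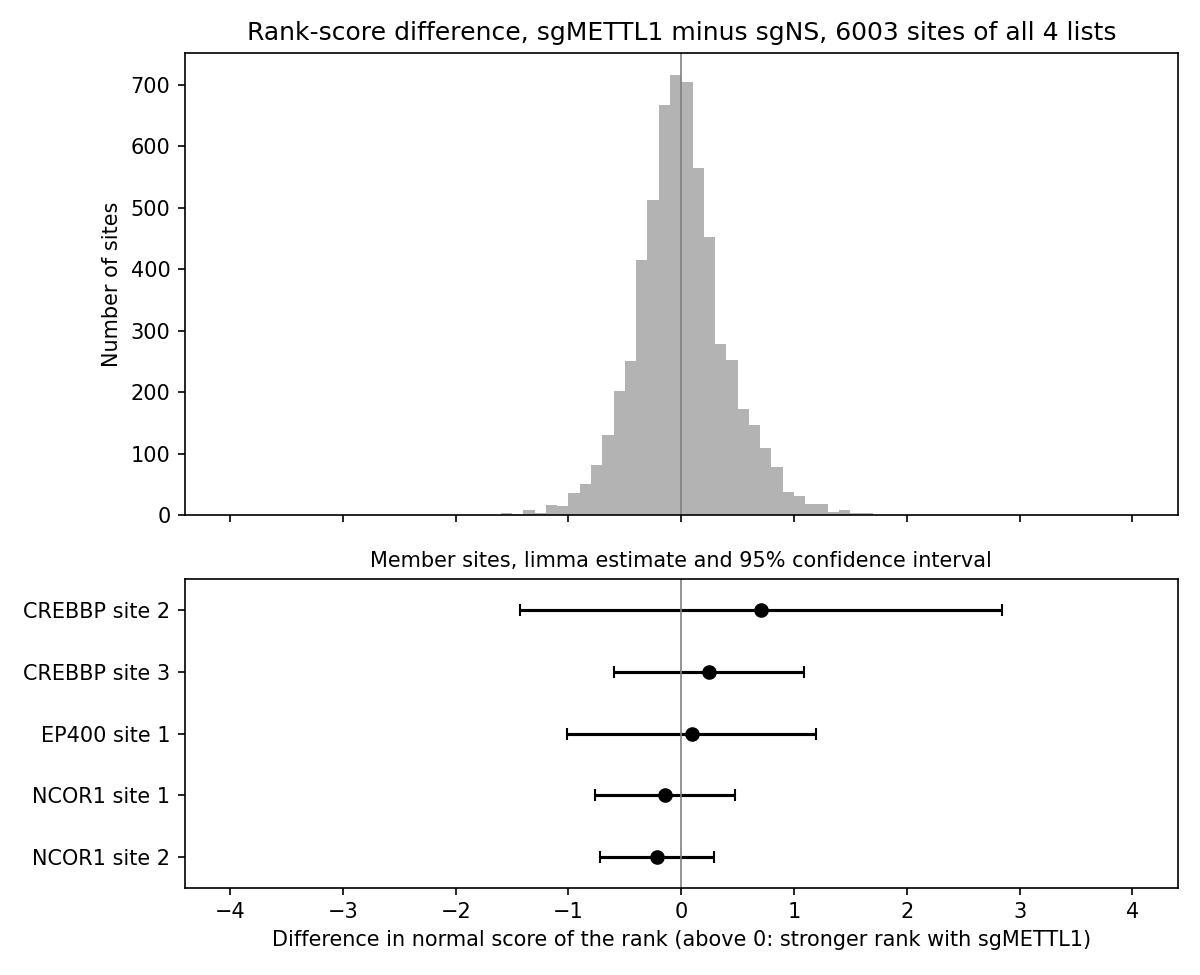
Top, the number of sites by the difference in normal score of the rank, sgMETTL1 minus sgNS, for the 6003 sites of all 4 lists; bottom, limma's estimate with its 95% confidence interval for the 5 sites of CREBBP, EP400 and NCOR1. All 5 intervals include 0, and that of CREBBP site 2 is the widest of them, from -1.43 to 2.85.

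Both sgMETTL1 folds were under both sgNS folds at 2 of the 5 sites, the 2 of NCOR1, against 38.7% of all sites of the 4 lists. None of the 5 had both sgMETTL1 folds over both sgNS folds, against 9.9% of all sites. By -log10 p, 4 of the 5 were lower with sgMETTL1 without overlap, all but EP400 site 1, against 76.2% of all sites. The weaker evidence for NCOR1 and CREBBP with sgMETTL1 was thus shared by most of the 6003 sites of all 4 lists. With 2 lists against 2, an exact permutation test of a single site cannot go below p = 0.333 (two-sided). RNA came from bulk cultures, so fewer cells with a bound transcript and less bound RNA per cell cannot be told apart.

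By gene, limma on the strongest fold called 0.0% of genes (0 of 4150, smallest adjusted p = 0.221). At limma's two-sided unadjusted p under 0.05, 408 genes passed, 212 (5.11%) higher and 196 (4.72%) lower with sgMETTL1. The score difference was 0.92 for CREBBP (95% interval -1.19 to 3.03), 0.12 for EP400 (-1.05 to 1.29) and -0.19 for NCOR1 (-0.72 to 0.34). That of CREBBP was -0.24 without replicate 1 of sgMETTL1. The strongest fold of CREBBP came from site 3 in replicate 2 of sgMETTL1 and from site 2 in the other lists. EP300 and CREBBP site 4 lack a peak in replicate 2 of sgMETTL1 and could be fitted only without that list, which left 1 sgMETTL1 list whose spread was taken from the others. There the difference was 0.70 for the EP300 gene, 0.66 for EP300 site 1 and -0.26 for CREBBP site 4. Each of these values keeps only the sgMETTL1 list that held the peak. The missing peak in replicate 2 does not enter them, so they cannot show a direction. At EP300 site 1 the kept sgMETTL1 peak had a -log10 p of 2.72, against 10.4 and 10.4 with sgNS.

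The genes whose 4 scores were nearest to those of a member were found by Euclidean distance over the 4 lists, among 4150 genes. For NCOR1 they were PKP4 (distance 0.0758) and PAFAH1B1 (0.0984), with folds of 3.93 and 4.19 for PKP4 with sgMETTL1 and 6.35 and 5.21 with sgNS. For EP400 they were RAB11B (0.282) and THAP5 (0.285). For CREBBP they were FAM134A (0.512) and AZI2 (0.662), which lay farther off. FAM134A had folds of 48.8 and 2.23 with sgMETTL1 and 7.22 and 3.47 with sgNS. The strongest folds of the CREBBP gene were 39.6 and 3.07 with sgMETTL1 and 6.37 and 3.33 with sgNS. Of these, 3.07 was the fold of site 3 and the others were folds of site 2.

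The related genes were taken as 6 groups with 66 genes, of which 46 had a peak in any list. The 66 were chosen with earlier results of these data known, so the shares below are no independent test. Of the 46, 37 were in all 4 lists (80.4%, against 63.7% of all listed genes). Both sgMETTL1 lists held 39 of the 46 (84.8%, against 67.5%) and both sgNS lists 40 (87.0%, against 76.3%). Limma called none of the 37 (0 of 37), and their median difference was -0.06, against -0.02 over all 4150 genes. With sgMETTL1 15 were higher and 22 lower, against 1984 and 2166 of all 4150. At limma's unadjusted p under 0.05 there were 4 of the 37, KAT6B among them, against 408 of all 4150. The 4 did not share a direction. With sgMETTL1, ACTL6A was higher (score difference 0.66) and BRD7 lower (-0.66). Of 11 other histone acetyltransferases, 8 had a peak in any list. Both sgMETTL1 lists held 5 of the 8 (62.5%, against 67.5% of all listed genes) and both sgNS lists 6 (75.0%, against 76.3%). KAT6B, an acetyltransferase of the MYST family, had folds of 33.5 and 6.94 with sgMETTL1 and 53.2 and 86.6 with sgNS. The catalytic subunit of the TIP60 complex, KAT5, had no peak.

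Of 16 further subunits of the EP400-TIP60 complex, 11 had a peak. In all 4 lists were 10 of the 11 (90.9%, against 63.7% of all listed genes), among them the scaffold gene TRRAP. MBTD1, a methyl-lysine reader of that complex, stood at 28.5 and 19.6 with sgMETTL1 and 25.7 and 18.0 with sgNS. In the NCOR group 3 of 5 had a peak, TBL1X, TBL1XR1 and ZBTB33. All 3 were in all 4 lists, against 63.7% of all listed genes. TBL1XR1, a core subunit that links NCOR1 to its partners, had the highest folds of the genes named for these groups, 104.0 and 86.9 with sgMETTL1 and 150.0 and 98.9 with sgNS, whereas HDAC3 and GPS2 had no peak. Of 16 other corepressor genes, 11 had a peak. Both sgMETTL1 lists held 10 of the 11 (90.9%, against 67.5% of all listed genes) and both sgNS lists 9 (81.8%, against 76.3%). The deacetylase gene HDAC2 stood at 33.5 and 38.9 with sgMETTL1 and 48.9 and 28.5 with sgNS.

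Of 11 genes for CITED proteins and partner transcription factors of CBP and p300, 7 had a peak. Both sgMETTL1 lists held 6 of the 7 (85.7%, against 67.5% of all listed genes) and both sgNS lists all 7 (against 76.3%). HIF1A, the hypoxia factor that recruits both coactivators, had folds of 18.1 and 27.2 with sgMETTL1 and 26.1 and 23.4 with sgNS. ATF1, a relative of CREB1, was in no sgMETTL1 list, against folds of 1.86 and 1.95 in the sgNS lists, a pattern that 4.63% of all genes showed. Of 7 acetyl-lysine readers, 6 had a peak, and both lists of either guide held 5 of the 6 (83.3%). The share of all listed genes was 67.5% for sgMETTL1 and 76.3% for sgNS. All 4 lists held 4 of the 6 readers (66.7%, against 63.7% of all listed genes). BRD9 was listed at 1.99 and 2.63 with sgMETTL1 and in no sgNS list, as 1.52% of all genes were. BRD3, a reader of the BET family, had 11.3 and 11.1 with sgMETTL1 and 14.9 and 11.6 with sgNS.

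**Figure D4:**
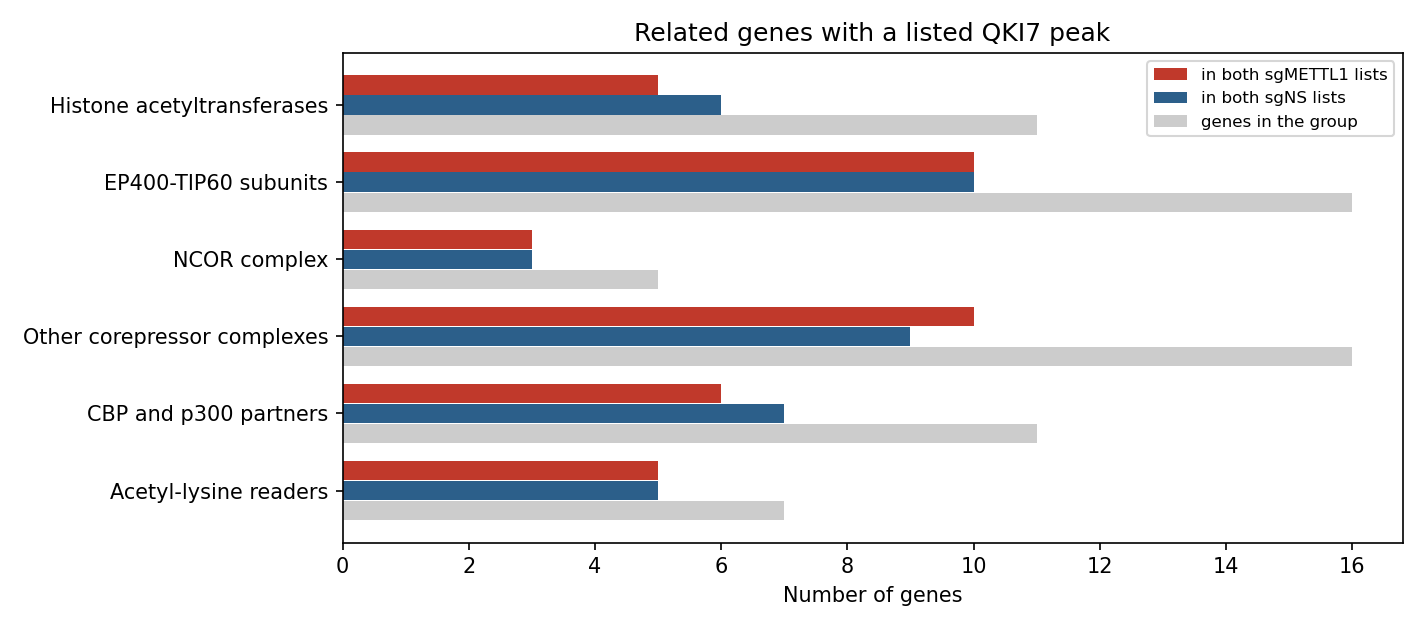
Number of genes in each of the 6 related groups with a peak in both sgMETTL1 lists (red) and in both sgNS lists (blue), beside the number of genes in the group (grey). The red and blue bars differ by at most 1 gene in every group.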

How the data were processed

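RNA immunoprecipitation sequencing of 8 HepG2 samples was analysed through 4 peak lists, 1 per pair of IP and input. STAR and GRCh38 are named in the submitters' processing notes. For the peak caller and its scaling, the sources used here give nothing. Each peak's fold enrichment is a ratio of IP over input, as deposited by the authors. Its p-value, and the base-10 log of p, handled as a score, are also as deposited by the authors. Depth behind a peak is unknown.

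Peaks of 1 gene name and strand whose blocks shared at least 1 base were joined into a site, and a site took its strongest fold per list. Sites, and genes by their strongest fold, were compared between guides with limma 3.58.1 (R 4.3.3) on normal scores of within-list ranks, with Benjamini-Hochberg adjustment. The labels do not say whether replicates were separate cultures, so p-values may measure technical spread only. Overlap matching and the fit were tested on simulated data (for 6003 sites and 200 changed by a score of 3, 85% were recovered). The member sites differed by at most 0.71 in the fit to all 4 lists, and recovery at that size was not tested. Spans are RefSeq genes of GRCh38.p14.

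The members, the 66 related genes and the tests were chosen with earlier results of these data known. The related genes named are the one of each group with the best mean rank, plus the 2 genes nearest to each member. ZBTB33 was named as the second of its group. KAT5, TRRAP, TBL1X, HDAC3, GPS2, ATF1, BRD9, ACTL6A and BRD7 were named after their values were seen. One further gene of the related list is not reported here. The alternatives were log2 folds, ranks by p, only peaks at or above 2 times the lowest fold of their list, 50% reciprocal overlap, equal numbers of peaks, the mean of a gene's peaks, the replicate block and leaving out each list.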

Additional observations from a re-analysis of the deposited data

How the results depend on the processing

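No alternative brought a call for sites or genes, nor for any of the 5 member sites and 3 member genes (70 values, smallest adjusted p = 0.433 by limma); leaving aside the replicate block, which cannot move a difference in this balanced design, 48 of 62 kept their direction and 14 reversed. The score difference was -0.19 for CREBBP site 2 and -0.15 for the CREBBP gene ranked by log p. On log2 folds it was -0.072 for EP400 site 1 and for the EP400 gene, above the medians of all sites (-0.22) and all genes (-0.24). By the average over all peaks of a gene it was -0.042 for EP400 and 0.079 for NCOR1. Leaving out 1 list gave -0.54 to 1.89 for CREBBP site 2, -0.18 to 0.60 for CREBBP site 3, -0.24 to 2.03 for the CREBBP gene, -0.47 to 0.60 for EP400 site 1, -0.44 to 0.65 for the EP400 gene, -0.41 to 0.094 for NCOR1 site 1, -0.33 to -0.12 for NCOR1 site 2 and -0.31 to -0.082 for the NCOR1 gene; the cause was not tested, and the lone list of a guide was assumed to vary like the others. CREBBP site 3 with the fold minimum and NCOR1 site 2 with 50% reciprocal overlap were no longer sites of all 4 lists and gave no value. Sites that both sgNS lists held and no sgMETTL1 list did numbered 2 with 50% reciprocal overlap (CREBBP site 4 and EP300 site 1), 1 with equal numbers of peaks (EP300 site 1) and, counted over the remaining lists, 0 to 2 when 1 list was left out (without an sgNS list these are sites of the other sgNS list alone). With the replicate number as a block, limma called 0 of 6003 sites and 0 of 4150 genes (smallest adjusted p = 0.484 and 0.473); same-numbered samples did not deviate together (correlation across sites -0.000892), and the labels give no pairing beyond the number.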
